A study of Mus musculus with 8 samples.

Results

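NF-kB is a family of transcription factors that B cells use to answer antigen, CD40 and BAFF signals. Its subunits wait in the cytoplasm, held by inhibitors of the IkB type or as unprocessed precursors. Kinases of the IKK complex mark these inhibitors and precursors for destruction or processing, and the freed subunits enter the nucleus and switch on genes, those of their own inhibitors among them. Germinal center B cells, the dividing B cells of lymphoid follicles that mutate and select their antibody genes, depend on several of these proteins. The 10 genes described here were taken by name: the subunits Nfkb1, Nfkb2, Rel, Rela and Relb, the inhibitors Nfkbia, Nfkbie and Tnfaip3, and the kinases Chuk and Ikbkb. They are 10 of 21887 protein-coding genes with a single position in the annotation used.

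The data are maps of 5-hydroxymethylcytosine (5hmC), the base that TET enzymes such as TET2 make by oxidizing methylated cytosine. DNA that carries 5hmC was immunoprecipitated and sequenced (hMeDIP-seq) from germinal center B cells of C57BL/6 spleen. There are 2 TET2 knockout (KO) and 2 TET2 wild-type (WT) libraries, numbered 2 and 3 in both genotypes. The labels of all groups share strain, tissue and cell type. They give neither the allele nor any driver of the knockout, nor the age and sex of the mice. Whether libraries came from separate animals is not given either, so the p-values rest on library spread alone, and that spread may be technical. There are also 2 KO and 2 WT input libraries, which were not analysed here. DNA libraries hold no transcripts, so the cell type label could not be checked against markers.

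The authors' peak lists hold 280416 and 279548 peaks for KO replicates 2 and 3, against 270548 and 300954 for WT replicates 2 and 3. Each peak carries the authors' fold enrichment, the signal at its summit over the local background of the caller. KO replicate 3 stands apart: the median fold enrichment of its list is 4.38, against 5.10, 5.51 and 4.89 in KO replicate 2, WT replicate 2 and WT replicate 3, and its peaks cover 111 Mb, against 125 to 139 Mb in the other lists. Tet2 itself, the targeted gene, had 3001 and 2827 scaled bases under peaks in the KO libraries, against 3271 and 2580 in the WT libraries. The groups overlap, and bases under peaks over the whole gene do not show a deletion inside it, so the genotype labels were not checked by these data.

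Each of the 10 genes had a 5hmC peak in at least 1 library, as did 18310 of the 21887 protein-coding genes. Where peaks of the 4 libraries touched or overlapped they were joined into union regions, and 71 of the 356368 union regions lay at least partly in the span of an NF-kB gene or within 2 kb of it. The number per gene ran from 2 in Tnfaip3 to 23 in Nfkb1, with a median of 4.5, beside a median of 4 over the 18310 protein-coding genes with a union region. The regions were 309 to 1351 bp wide, with a median of 472 bp. Of the 71, 57 had their midpoint in the interior of the gene, 13 within 2 kb of a gene end, and 1, beyond Nfkbia, just outside the window that its edge reached into.

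A peak was present in every library at 39 of the 71 regions (54.9%), beside 58.0% of the 148856 union regions in or near any protein-coding gene. KO replicate 2 had a peak at 55 of the 71 regions, KO replicate 3 at 50, WT replicate 2 at 63 and WT replicate 3 at 53. These are 77.5%, 70.4%, 88.7% and 74.6% of the NF-kB regions in that order, beside 77.0%, 75.01%, 75.5% and 82.4% of all genic ones. WT replicate 2 held more of the NF-kB regions than of all genic ones, and WT replicate 3 fewer. At 2 regions, both in Rel, each KO library and neither WT library had a peak, and at 1, in Nfkbie, each WT library and neither KO library had one. These patterns made up 2.82% and 1.41% of the 71 regions, beside 1.26% and 2.24% of all genic ones. Presence or absence of a peak separated KO from WT at no other region.

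**Figure D1:**
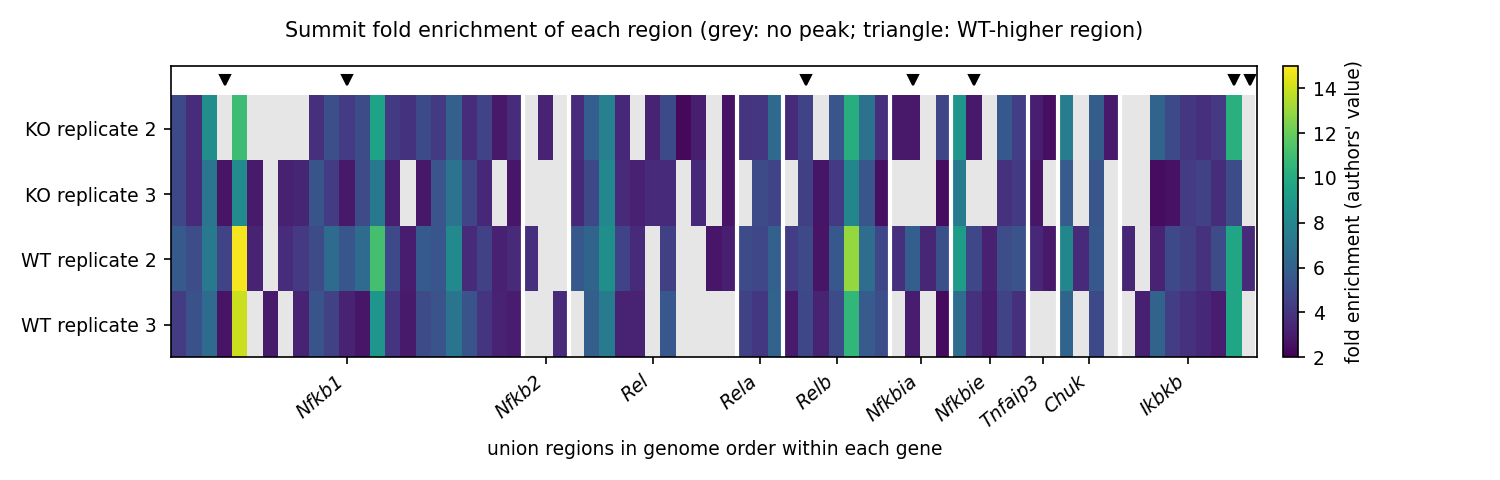
Summit fold enrichment, the authors' value, of each of the 71 union regions (columns, in genome order within each gene) in the KO and WT libraries (rows); grey marks a region without a peak and triangles mark the 7 regions that overlap a WT-higher region. The highest values, up to 14.80, lie in 1 region of Nfkb1, and most regions with grey cells have low values in the other libraries.

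Few of the start sites examined had a 5hmC peak. RefSeq promoter windows (GRCm38.p6, 250 bases before to 50 after a start site) were at hand for 7 of the 10 genes, Nfkb2, Rel, Rela, Nfkbia, Nfkbie, Tnfaip3 and Chuk, and 10 start sites in all. A union region overlapped 1 of the 10 windows, that of the inner Tnfaip3 start site at 19011963, beside 9.41% of all 32851 promoter windows. Only the peak of KO replicate 2 reaches into that window, with a fold of 2.55, in the lowest 1% of its list. That window has 6 CpG, the dinucleotide at which TET enzymes act, whereas the other 9 have 15 to 42. For Nfkb2 the nearest region lay 772 bp from the start site at 46304737, and 1730 and 1965 bp from the others. For Rel it lay 1041 bp from the start site, for Nfkbia 1399 bp and for Rela 2498 bp. The distance was 3413 bp for the outer Tnfaip3 start site, 3453 bp for Nfkbie and 8346 bp for Chuk. The sequence before the start site is shown for Rel, the most CpG-rich of the promoters, and for the inhibitors Nfkbia and Nfkbie, which hold a WT-higher region elsewhere; no library had a peak in these stretches. Each runs 5′ to 3′ on the strand of the gene (RefSeq, GRCm38.p6), with every CpG in capitals.
Rel, chr11:23770970-23771219, minus strand: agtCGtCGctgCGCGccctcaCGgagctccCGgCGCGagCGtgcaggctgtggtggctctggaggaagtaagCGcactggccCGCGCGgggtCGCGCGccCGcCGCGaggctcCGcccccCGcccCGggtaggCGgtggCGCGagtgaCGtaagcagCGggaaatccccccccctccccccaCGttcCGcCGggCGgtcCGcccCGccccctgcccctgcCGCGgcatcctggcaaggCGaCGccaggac
Nfkbia, chr12:55492648-55492897, minus strand: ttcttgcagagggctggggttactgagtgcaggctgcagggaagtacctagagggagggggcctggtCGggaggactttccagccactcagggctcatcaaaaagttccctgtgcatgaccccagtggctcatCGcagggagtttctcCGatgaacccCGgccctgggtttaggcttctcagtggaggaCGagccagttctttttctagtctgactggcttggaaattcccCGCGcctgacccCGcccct
Nfkbie, chr17:45555450-45555699, plus strand: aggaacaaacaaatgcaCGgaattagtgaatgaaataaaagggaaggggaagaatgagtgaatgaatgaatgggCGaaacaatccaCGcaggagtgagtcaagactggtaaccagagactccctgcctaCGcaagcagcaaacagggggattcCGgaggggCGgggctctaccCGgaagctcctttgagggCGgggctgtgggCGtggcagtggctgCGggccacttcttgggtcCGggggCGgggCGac
The stretch of Rel holds 37 CpG, that of Nfkbie 13 and that of Nfkbia 8.

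Several NF-kB genes are known targets of NF-kB. The letters GGNNTTTCC, a short form of the site, were searched on both strands of the 300-base windows. They occurred in 6 of the 10 windows, those of Nfkb2, Rel, Nfkbia and the outer start site of Tnfaip3, beside 5.82% of all promoter windows, and 2 of the 3 Nfkb2 windows overlap and share the same match. The windows of Chuk, Nfkbie, Rela and the inner Tnfaip3 start site held none. The printed stretch of Nfkbia holds GGACTTTCC and, matched on the opposite strand, GGAAATTCC; that of Rel holds GGAAATCCC, also matched on the opposite strand. A match describes these letters and no binding.

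Regions that differ between genotypes were also deposited, in a table for each direction that its header names: higher in KO (KO-higher) and higher in WT (WT-higher). Of the 50 KO-higher regions in the authors' deposited table, 0 lie in the windows of the NF-kB genes, and of the 24645 WT-higher regions 9 do. Of the 10 genes, 5 held a WT-higher region (50%, Wilson 95% interval 23.7 to 76.3%): Nfkb1, Relb, Nfkbia, Nfkbie and Ikbkb. Over all protein-coding genes with a union region the share was 28.3%, which lies inside that interval, and for KO-higher regions it was 0.104%. Counted by region, 7 of the 71 union regions overlapped a WT-higher region (9.86%, Wilson 95% interval 4.86 to 19.0%), beside 7.26% of all genic union regions, so the NF-kB genes stood near the background. These intervals cover counting error only, and the tables give no values per library.

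WT-higher regions were found in genes of each role. The subunits held 5, in 2 of 5 genes, the inhibitors 2, in 2 of 3 genes, and the kinases 2, both in Ikbkb. Of the 9, 3 overlapped a peak in all 4 libraries, 3 in 3 libraries, 2 in 1 library and 1 in none. A peak of KO replicate 2 overlapped 5 of them and one of KO replicate 3 overlapped 4, against 8 for WT replicate 2 and 6 for WT replicate 3. They were listed because WT exceeded KO, so that order restates the choice. At 2 of the regions WT replicate 2 alone had a peak. The KO libraries were close in these counts, at 5 and 4, but not in the share of a region that their peaks covered. KO replicates 2 and 3 covered 100% and 11.6% of the region in Relb, 93.2% and 0% in Nfkbia, and 85.5% and 0% in Nfkbie. At the Nfkb1 region from 135594762 the order was the other way, at 0% and 14.4%. The part of single libraries in the authors' calls was not tested.

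**Figure D2:**
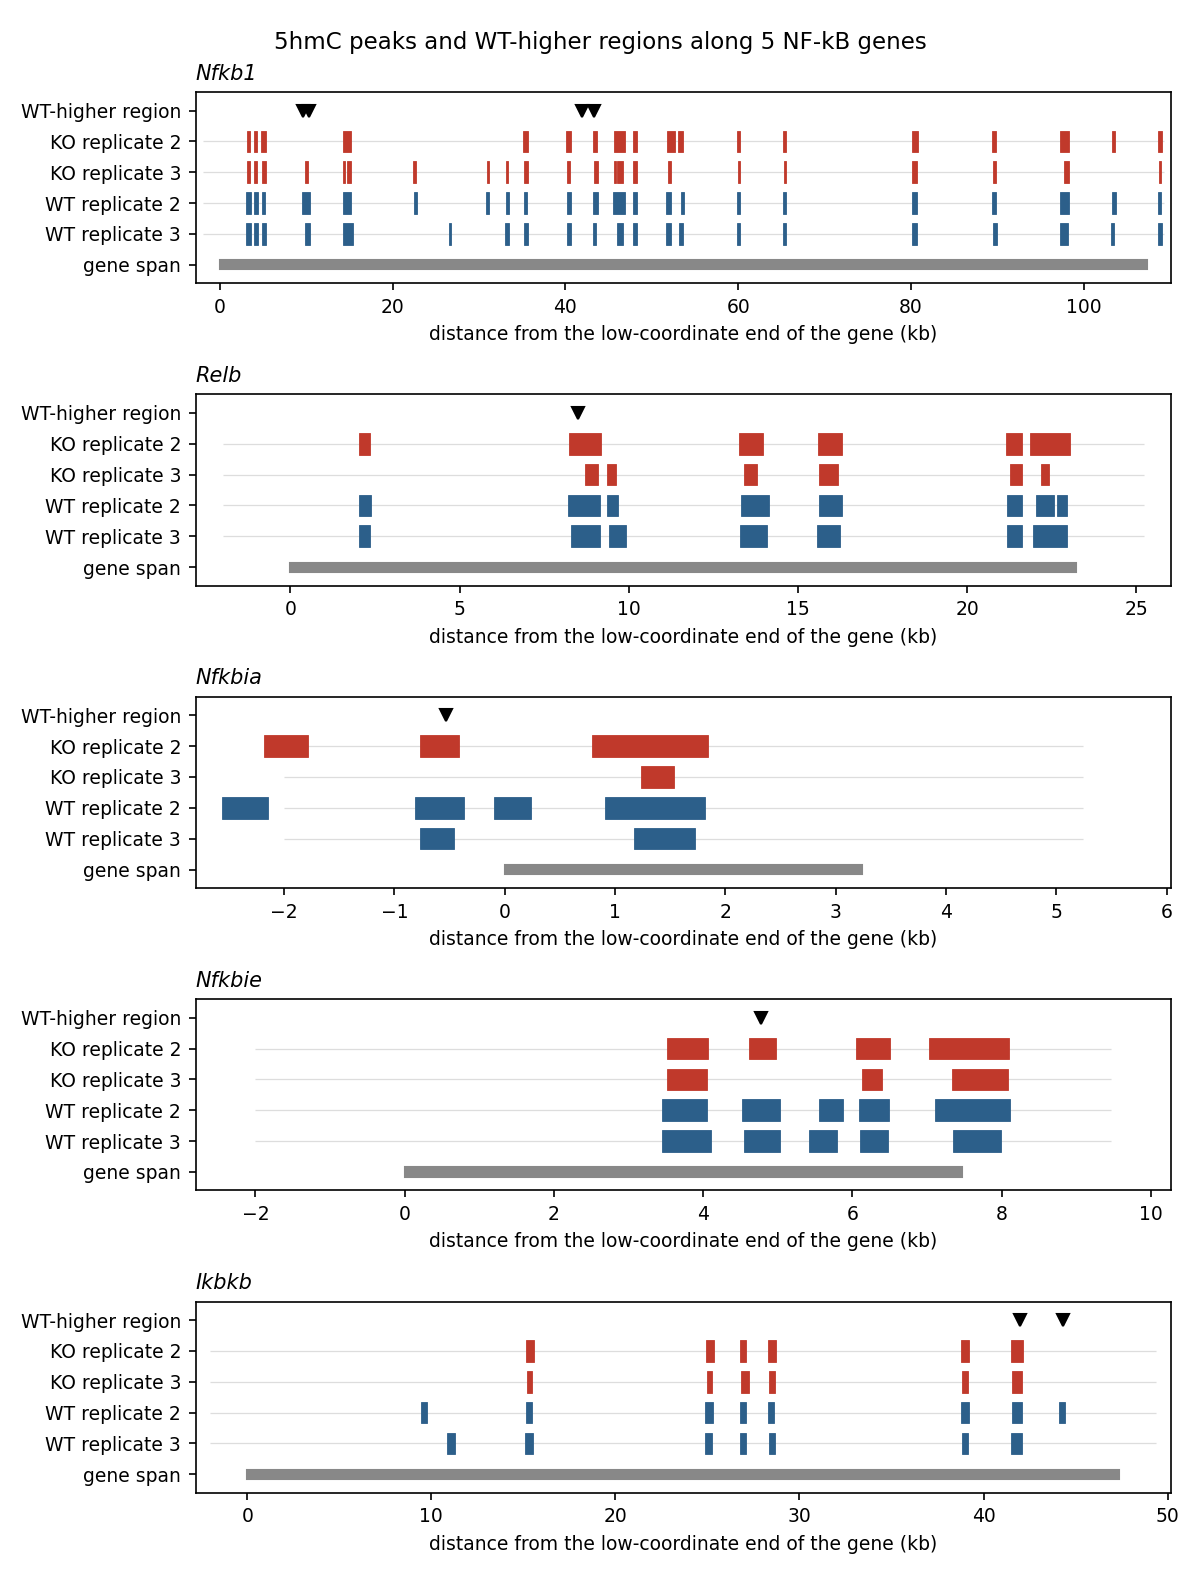
Peaks of the KO libraries (red) and the WT libraries (blue) along the 5 NF-kB genes that hold WT-higher regions (triangles), as distance in kb from the low-coordinate end of the gene span (grey bar), drawn with the window of 2 kb on each side. The 4 WT-higher regions of Nfkb1 form 2 close pairs, and that of Nfkbia lies outside the gene span.

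Nfkb1, which encodes the precursor p105 and its product p50, is the longest of the genes (chromosome 3, 135584655 to 135691969 in GRCm38) and had 23 union regions, 16 of them with a peak in every library. Its strongest site, at 135598881 to 135600041 inside the gene, had fold enrichments of 10.97 and 8.26 in KO replicates 2 and 3, against 14.80 and 13.96 in WT replicates 2 and 3. Behind these values stood recovered summit pileups of 160 and 97 reads in KO, against 142 and 186 in WT. Both KO folds were below both WT folds, and the site ranked above the 95th percentile of peaks in every list, yet the authors' table has no WT-higher region there. Folds come from separately called lists and were not tested between libraries. A second strong site at 135632437 to 135632943 had folds of 9.56 and 7.27 in KO, against 11.2 and 8.83 in WT, where the groups overlap.

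The authors' deposited table has 4 WT-higher regions in Nfkb1, a number reached by 4.53% of genes with a union region. That share was not matched for gene length, and Nfkb1 has 23 union regions, beside a median of 4. By union region, 2 of the 23 overlapped a WT-higher region (8.70%, Wilson interval 2.42 to 26.8%). The share of all genic union regions, 7.26%, lies inside that interval, so Nfkb1 stood near the background. The 4 WT-higher regions form 2 pairs. The first pair, at 135594107 to 135594506 (score 4.87) and 135594762 to 135595227 (score 4.97), overlaps 1 union region, where KO replicate 2 had no peak and KO replicate 3 a fold of 2.70, against 4.66 and 2.68 in the WT libraries. WT replicate 2 alone stood out there, with a peak of 1004 covered bases, while KO replicate 3 and WT replicate 3 had 296 and 497. The second pair, at 135626476 to 135626703 (score 5.10) and 135627824 to 135628092 (score 3.69), differed in its peaks: the first of them overlapped none in any library, and lay 1139 bp from the nearest union region, whereas the second overlapped one in all 4, with folds of 4.30 and 2.86 in KO, against 5.49 and 3.23 in WT. The groups overlap there, with KO replicate 2 above WT replicate 3.

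Relb, the subunit that pairs with p52 in the noncanonical pathway (chromosome 7, 19606217 to 19629438), had 7 union regions, 5 of them with a peak in every library and 2 with a peak in 3. Its strongest, at 19621788 to 19622521, had folds of 10.1 and 7.95 in KO, against 12.9 and 10.6 in WT, from recovered pileups of 148 and 121 reads in KO, against 131 and 148 in WT. Both KO folds were the lower ones, and the authors' table lists no difference at the site. The 1 WT-higher region of the authors' deposited table, at 19614465 to 19614991 (score 5.39), lay in another union region, where the folds were 4.62 and 4.46 in KO, against 4.87 and 4.81 in WT. The difference between libraries there was in width: peaks covered 100% of the WT-higher region in KO replicate 2 and 11.6% in KO replicate 3, against 100% and 93.5% in the WT libraries. KO replicate 3 alone was low. The window of Relb also overlaps the gene Clasrp.

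Rel, Rela and Nfkb2 held no WT-higher and no KO-higher region. Rel encodes c-Rel, a subunit that germinal center B cells need to be maintained (chromosome 11, 23736847 to 23770969), and had 11 union regions. Its strongest, at 23747528 to 23747984, had folds of 7.64 and 8.09 in KO, against 8.49 and 7.41 in WT, so the groups overlap. The 2 Rel regions with peaks in KO libraries alone, at 23757658 to 23758020 and 23764921 to 23765267, were weak, with folds of 3.27 and 3.62 at the first and 3.11 and 3.45 at the second. WT replicate 3 had a peak at only 5 of the 11 Rel regions, against 9 in each KO library and 8 in WT replicate 2, and was the lowest library in this gene.

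Rela, which encodes p65, the activating subunit of the canonical pathway (chromosome 19, 5637442 to 5648134), had 3 union regions. The strongest, at 5649448 to 5650484 past the end of the gene, had folds of 6.45 and 4.63 in KO, against 6.00 and 6.15 in WT, and the groups overlap. Nfkb2, which encodes p100, the precursor of p52 (chromosome 19, 46300994 to 46312400), had the fewest bases under peaks of the subunits. It had 3 union regions, each from a single library: KO replicate 2 (fold 3.27), WT replicate 2 (3.73) and WT replicate 3 (3.55) had 1 peak each at different places, and KO replicate 3 had 0. The third of them lies where the window also takes in Psd, the neighboring gene. No peak of Nfkb2 was seen in more than 1 library, so a shared 5hmC site was not detected there.

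Among the inhibitors, Nfkbia and Nfkbie held 1 WT-higher region each. Nfkbia encodes IkB-alpha, the fast inhibitor that NF-kB itself induces (chromosome 12, 55489409 to 55492647, minus strand). Its WT-higher region in the authors' deposited table, at 55488744 to 55489009, has the highest score of the 9, 6.73, above 91.4% of all WT-higher regions. It lies past the low-coordinate end of the gene, which on the minus strand is the downstream side. KO replicate 2 had a fold of 2.87 there and KO replicate 3 no peak, against 5.90 and 2.995 in the WT libraries. The recovered pileups were 35 reads in KO replicate 2, against 56 and 37 in WT. WT replicate 2 was high, and KO replicate 2 and WT replicate 3 were near each other. The gene itself had 1 region with a peak in every library, at 55490202 to 55491248, with folds of 4.70 and 2.44 in KO, against 5.18 and 2.36 in WT; here the number 2 libraries were high and the number 3 libraries low in both genotypes.

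Nfkbie encodes IkB-epsilon, an inhibitor of c-Rel and p65 dimers (chromosome 17, 45555700 to 45563169, plus strand), and had 5 union regions. The strongest, at 45559153 to 45559806, had folds of 8.76 and 7.33 in KO, against 9.11 and 6.62 in WT, and the groups overlap. Its WT-higher region in the authors' deposited table, at 45560257 to 45560685 (score 4.15), had a fold of 2.87 in KO replicate 2 and no peak in KO replicate 3, against 4.76 and 3.86 in WT. Both WT libraries were above both KO libraries there. The next union region, at 45561121 to 45561573, is the site where each WT library and neither KO library had a peak, and its WT folds were low, at 3.21 and 2.99. The last union region runs past the end of Nfkbie, in a window that the neighboring gene Slc35b2 shares.

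Tnfaip3, which encodes A20, the ubiquitin-editing enzyme that ends NF-kB signals (chromosome 10, 19000910 to 19015410, minus strand), had 2 weak union regions and no differential region. At 19010232 to 19010646 the folds were 3.11 and 2.78 in KO, against 3.43 in WT replicate 2 and no peak in WT replicate 3. At 19011371 to 19011997 only the number 2 libraries had a peak, with folds of 2.55 in KO and 2.90 in WT. These values rank in the lowest 10% of their lists, so the differences between libraries in A20 rest on peaks close to the calling threshold.

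Ikbkb encodes IKK-beta, the catalytic kinase of the canonical pathway (chromosome 8, 22659205 to 22706589), and had 9 union regions and 2 WT-higher regions, both toward its high-coordinate end. The first, at 22701085 to 22701310 (score 4.37), lies in the strongest region of the gene, with folds of 10.2 and 4.95 in KO, against 9.63 and 9.63 in WT. KO replicate 3 was low there and KO replicate 2 was the highest of the 4 libraries, with recovered pileups of 137 and 75 reads in KO, against 92 and 128 in WT. The second, at 22703374 to 22703621 (score 6.36, above 87.7% of WT-higher regions), had a peak in WT replicate 2 alone, with a fold of 3.62. Chuk encodes IKK-alpha, the kinase of the noncanonical pathway (chromosome 19, 44073334 to 44107505, minus strand), and had 4 union regions and no differential region. The strongest, at 44071243 to 44071749 downstream of the gene, had folds of 7.49 and 5.73 in KO, against 7.97 and 6.19 in WT, where the groups overlap. The window of Chuk also overlaps the gene Cwf19l1, and whether this region lies in that gene was not tested.

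Over the 39 NF-kB regions with a peak in every library, the lowest of the 4 folds was that of KO replicate 2 at 4 regions, KO replicate 3 at 22, WT replicate 2 at 1 and WT replicate 3 at 12. KO replicate 3 was thus the lowest at 56.4% of these regions, beside 66.8% of all 86326 such genic regions. The highest fold was that of WT replicate 2 at 22 of the 39 regions (56.4%), beside 54.2% of all. WT replicate 3 had the lowest fold at 30.8% of the NF-kB regions, beside 13.9% of all, and the highest at 10.3%, beside 20.1%. These shares rest on 39 regions and were not tested. In each library the median fold of the NF-kB regions was below that of all such genic regions. It was 5.04 against 5.68 in WT replicate 3 and 4.55 against 4.80 in KO replicate 3. In a bulk DNA library, fewer cells with the mark at a site and less of the mark per cell cannot be told apart.

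Summed over each gene window, bases under peaks differed between KO and WT past the threshold of the test in none of the NF-kB genes. The bases of each library were scaled to equal totals, and genes with a mean of at least 500 of them were tested with limma as log2(scaled bases + 200). Of the 10 genes, 9 passed that minimum and Nfkb2 did not. At a Benjamini-Hochberg adjusted p under 0.05, 0 of 13998 genes passed in limma as higher in KO (0%) and 0 as lower (0%), while 591 (4.22%) had an unadjusted p under 0.05, none of them an NF-kB gene. The adjusted limma p was 0.9999 for each of the 9, with unadjusted limma p from 0.112 in Relb to 0.889 in Rela. The added 200 bases shrink the log2 change of sparsely covered genes.

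Of the 9 genes tested, 6 had a log2 change below 0 and 3 above, with a median of -0.17, beside a median of -0.01 over all genes tested. In 4 of them both KO libraries lay below both WT libraries and in 0 above, where 16.6% of all genes tested had KO below and 14% had KO above. These 4 were Relb, Nfkbie, Nfkb1 and Ikbkb, all of which hold WT-higher regions. The libraries behind the authors' tables are not given, so the tables and the coverage cannot be taken as separate evidence. With equal numbers of peaks per library, 1 of 8 genes tested had KO below WT without overlap, beside 2151 of all 13702 genes tested.

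**Figure D3:**
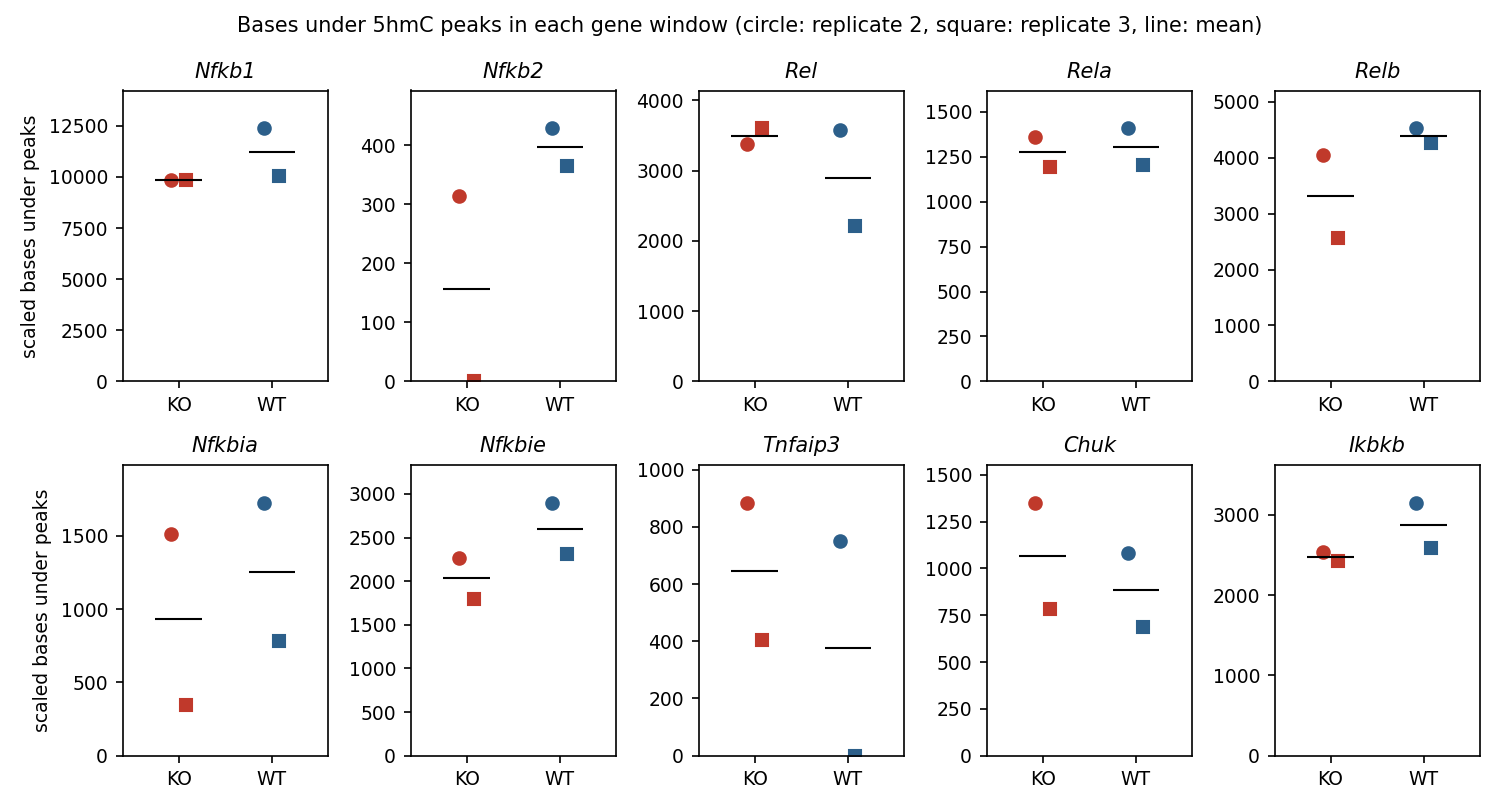
Bases under peaks, scaled to equal library totals, in the window of each NF-kB gene in the KO libraries (left, red) and the WT libraries (right, blue), with circles for replicate 2, squares for replicate 3 and lines for the mean of 2 libraries; each panel has its own axis from 0. Relb, Nfkbie, Nfkb1, Ikbkb and the sparsely covered Nfkb2 have both KO points below both WT points.

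Relb had 4047 and 2569 scaled bases under peaks in KO, against 4521 and 4257 in WT. KO replicate 3 was far below the others and KO replicate 2 a little below the WT pair. The log2 change was -0.42 with a standard error of 0.22, and without KO replicate 3 it was -0.11; without KO replicate 2 it was -0.73 (limma adjusted p = 0.232). Nfkbie had 2270 and 1795 scaled bases in KO, against 2899 and 2306 in WT, with a log2 change of -0.33 (standard error 0.18). KO replicate 2 and WT replicate 3 were almost level in Nfkbie.

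Nfkb1 had 9824 and 9868 scaled bases in KO, against 12368 and 10034 in WT, with a log2 change of -0.17 (standard error 0.12). Without WT replicate 2 the change was -0.027. Ikbkb had 2533 and 2428 scaled bases in KO, against 3151 and 2586 in WT, with a log2 change of -0.19 (standard error 0.15) that moved to -0.056 without WT replicate 2. The Ikbkb change was -0.0060 with equal numbers of peaks and -0.92 with peaks of at least 5-fold enrichment. In both genes WT replicate 2 was high and WT replicate 3 lay just above the KO libraries.

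In the other 5 genes tested, KO and WT overlapped. Nfkbia had 1511 and 347 scaled bases in KO, against 1725 and 784 in WT (log2 change -0.51, standard error 0.61), with the number 3 library low in both genotypes. Its direction turned to 0.32 without KO replicate 3. Rel had 3373 and 3599 scaled bases in KO, against 3575 and 2215 in WT (log2 change 0.29, standard error 0.23), where WT replicate 3 alone was low. Without it the Rel change was -0.035.

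Rela had 1361 and 1194 scaled bases in KO, against 1408 and 1202 in WT (log2 change -0.026, standard error 0.17). The Rela value depended on the window: it was -0.25 with the gene span alone and -0.31 with 10 kb on each side (limma unadjusted p = 0.0720). Chuk had 1350 and 783 in KO, against 1082 and 685 in WT (log2 change 0.21, standard error 0.31). The direction of Chuk turned with equal numbers of peaks (-0.16), without KO replicate 2 (-0.12) and without WT replicate 3 (-0.054). Tnfaip3 had 884 and 406 in KO, against 750 and 0 in WT, with a log2 change of 0.89 and a standard error of 0.81. With a library at 0 the added bases set the size of this value, which was 1.71 with 50 added bases and 0.30 with 1000, and 0.34 with 10 kb on each side. WT replicate 3 alone had no peak in Tnfaip3, and without it the change was -0.23. Nfkb2, under the minimum, had 315 and 0 scaled bases in KO, against 429 and 365 in WT, from single peaks at different places.

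**Figure D4:**
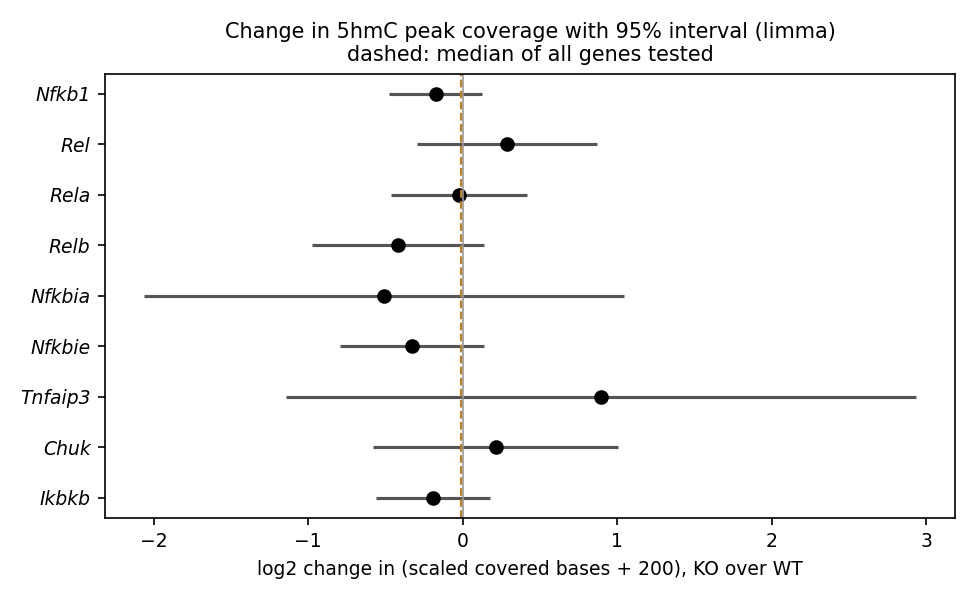
Log2 change of (scaled covered bases + 200), KO over WT, for the 9 NF-kB genes tested, with 95% intervals from limma as horizontal lines; the dashed line is the median of all 13998 genes tested. Every interval includes 0, and those of Tnfaip3 and Nfkbia are the widest.

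The intervals show what size of change these 4 libraries leave possible. For Nfkb1 the 95% limma interval of the log2 change ran from -0.48 to 0.13 and for Ikbkb from -0.56 to 0.18. Those of Rela (-0.47 to 0.42), Nfkbie (-0.79 to 0.14), Relb (-0.98 to 0.14), Rel (-0.30 to 0.87) and Chuk (-0.58 to 1.01) were wider. In Nfkbia (-2.06 to 1.05) and Tnfaip3 (-1.15 to 2.94) changes past 2-fold in either direction lie inside the interval. With 1000 added bases these intervals were narrower, at -1.14 to 0.62 for Nfkbia and -0.47 to 1.06 for Tnfaip3.

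A list of 34 further genes held other IKK and IkB proteins, upstream activators and ubiquitin-editing enzymes, and 14 of the 34 had a WT-higher region in the authors' deposited table, 27 regions in all, and 0 a KO-higher one. The share over all genes with a union region was 28.3%, and 32 of the 34 had one. By union region, 25 of 241 overlapped a WT-higher region (10.4%, Wilson 95% interval 7.13 to 14.9%), beside the 7.26% of all genic regions. In limma 26 of the 34 were tested, 16 had a log2 change below 0 and 10 above (median -0.09), and 0 passed at an adjusted p under 0.05 in either direction, with 1 at an unadjusted p under 0.05. A WT-higher region lay in 4 of 9 other IKK and IkB genes, 7 of 17 upstream activators and 3 of 8 genes of ubiquitin editing, small counts that are to be read beside the same 28.3%.

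Cd40, the receptor for T cell help, held 3 WT-higher regions, a number reached by 6.82% of genes with a union region. Map3k14, the kinase NIK that activates IKK-alpha, held 2, as did Bcl3, a nuclear IkB protein, Birc3, a ubiquitin ligase that degrades NIK, Otulin, a deubiquitinase, and Tnip1, a partner of A20. At least 2 WT-higher regions were held by 12.2% of all genes with a union region. In limma the smallest unadjusted p of the 26 belonged to Map3k14, Traf6 and Cd40. Map3k14 had 4189 and 4445 scaled bases in KO, against 5961 and 5805 in WT, a log2 change of -0.43 (standard error 0.10, limma adjusted p = 0.9999, unadjusted p = 0.00725). Its KO values lay well below both WT values, as did those of Traf6, the ubiquitin ligase downstream of CD40, with 1079 and 1174 in KO, against 1589 and 1474 in WT (log2 change -0.38, standard error 0.16, limma adjusted p = 0.9999). Cd40 had 4837 and 4482 in KO, against 5995 and 5190 in WT (log2 change -0.25, standard error 0.12, limma adjusted p = 0.9999). These 3 genes were named for their small p, so the gap between KO and WT restates the choice. Of the 26 tested, 4 had both KO values below both WT values and 1 had both above. Over all genes tested these shares were 16.6% and 14%. An unadjusted limma p under 0.05 was reached by 1 of the 26, beside 4.22% of all genes tested.

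The genes whose coverage over the 4 libraries was most like that of Nfkb1, by Euclidean distance of log2(scaled bases + 200), were Dop1b (0.09), Ccdc146 (0.10) and Irak2 (0.11). Like Nfkb1, each had its highest value in WT replicate 2, which restates the choice by closeness over the same 4 libraries. The distance measures likeness of level as well as of pattern, over 4 libraries.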

How the data were processed

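5hmC peaks came from 4 hMeDIP libraries (KO replicates 2 and 3, WT replicates 2 and 3). The submitters' processing notes name the aligner BWA (0.7.12-r1039), the build GRCm38.p3 and the peak caller MACS2 (2.1.0.20151222); settings are not given in the sources used here. The authors deposited 1 peak list per library, with a fold enrichment ratio, a −log10 p-value, a −log10 q-value and a score for each peak. The authors' 2 differential tables, whose caller and compared libraries are not given in the sources used here, carry a deposited score of unstated scale (at least 3.08). All of these values were used only to describe, rank or filter.

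Reads per library are not given. Whole summit pileups were recovered from fold and −log10 p (Poisson) for at least 99.9974% of peaks, to within 0.001 in −log10 p. In each list the commonest local background was 11.6 and 10.9 reads in KO and 8.66 and 11.7 in WT, and limits precision.

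Gene spans came from RefSeq GRCm38.p6, whose primary chromosomes have GRCm38.p3 coordinates, plus 2 kb on each side; overlap meant at least 1 bp. Exons were not told apart, and the strand of Nfkb1, Relb and Ikbkb was not used. Covered bases, scaled to equal totals, were tested with limma 3.58.1 (trend and robust, R 4.3.3). The fit was also run on simulated data, and the outcome of that run is not reported here. Members and lists were chosen with earlier results of these data known. Named genes were all members, listed pathway genes with 2 or more WT-higher regions or the 3 smallest p, Tet2, and the 3 genes most like Nfkb1. A gene that this rule names is not reported here. Alternatives were other pseudocounts, filters, scaling, windows, peak sets, merging, scores, a replicate block and each library left out.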

Additional observations from a re-analysis of the deposited data

How the results depend on the processing

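No gene passed an adjusted p under 0.05 in limma under any alternative run (0 in each), so no call was lost or gained; the number with an unadjusted p under 0.05 ran from 341 with peaks of at least 5-fold enrichment to 1149 without KO replicate 2. Of 111 alternative values of the log2 changes of the 9 tested genes, 102 kept their direction and 9 turned round. All 9 were in Rel, Rela, Nfkbia, Tnfaip3 and Chuk, and the cause was not tested. The 102 include values that could not turn: with the replicate block, or with no filter on low coverage, the log2 changes repeat by construction. Rel was -0.62 with peaks of at least 5-fold enrichment and -0.035 without WT replicate 3, Rela was 0.06 without KO replicate 3 and 0.073 without WT replicate 2, and with equal numbers of peaks Chuk was -0.16. With 1 library left out, where a lone library is assumed to vary like the others, the log2 changes ran from -0.035 to 0.61 for Rel, -0.12 to 0.073 for Rela, -1.32 to 0.32 for Nfkbia, -0.23 to 1.34 for Tnfaip3, -0.12 to 0.55 for Chuk, -0.32 to -0.027 for Nfkb1, -0.73 to -0.11 for Relb, -0.48 to -0.17 for Nfkbie and -0.32 to -0.056 for Ikbkb. The 4 genes without overlap between KO and WT, all with KO lower, became 1 with equal numbers of peaks, Nfkbie. With 1 library left out there were 6 to 7 in either direction, where fewer values make a gap more frequent. KO was lower in 6 and higher in 1 without KO replicate 2, beside 5005 and 4565 of all 13873 genes tested. Without KO replicate 3 these counts were 4 and 2, beside 4535 and 4079 of all 14261 genes tested. They were also 4 and 2 without WT replicate 2, beside 4181 and 4949 of all 13991. Without WT replicate 3 they were 6 and 0, beside 5434 and 3791 of all 13781. Rela, Nfkbia and Tnfaip3 fell under the minimum, and have no value, with peaks of at least 5-fold enrichment, as did Tnfaip3 with equal numbers of peaks, without KO replicate 2 and without WT replicate 2. Without scaling the median log2 change over all genes was -0.10 and that of the 9 genes -0.27. The 9 WT-higher regions became 4 at a deposited score of at least 5, in 4.23% of union regions, and 14 with 10 kb on each side. The share of all genic union regions is not given for that score or window. The 7.26% above holds for all scores and cannot be set beside 4.23%. Regions with a peak in every library fell to 9 of 31 with peaks of at least 5-fold enrichment and ran from 39 to 45 with 1 library left out. The labels do not say whether same-numbered libraries are paired, and they were not treated so: replicate 2 minus replicate 3 in KO correlated with the same in WT at 0.09 over 13998 genes. With the replicate block 0 genes passed too (smallest adjusted p = 0.16 in limma) and 924 had an unadjusted p under 0.05, against 591 without it; the log2 changes are the same by construction, and Relb had an unadjusted limma p of 0.0327 (interval -0.80 to -0.043, adjusted p = 0.679) under the block, against 0.112 without it. Peaks of Nfkb2 and Tnfaip3 were few and weak.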
